A study of Oryza sativa with 12 samples.

Results

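Phosphate starvation genes are the genes by which a plant senses, takes up, moves and recovers phosphate. They were followed in leaves of 2 varieties of rice (Oryza sativa), QJ10 and LJ31, called QJ and LJ here. Genes were chosen by name alone: the name, without a leading Os, had to start with SPX, PHT, PHR, GDPD, SQD or MGD, or with PAP, PT, PHO or IPS followed by a digit. This gave 48 of the 13674 genes in the 4 deposited tables. They were 4 SPX genes, 3 SPX-MFS genes, 2 PHR genes, 2 IPS genes, 12 genes named PT, 5 named Pho1, 16 named PAP and 4 genes of membrane lipids.

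There were 4 groups of 3 libraries each: QJ under salt-alkali stress brought on by bicarbonate at 200 mmol/L, QJ controls, LJ under the same stress, and LJ controls. The series record calls the 3 libraries of a group biological replicates. Plant age, length of treatment and the salt used are unknown here. Values are FPKM, fragments scaled by gene length and library size, so levels of different genes may be set side by side. Each table compares a pair of groups and lists only genes that the authors had called changed, with an adjusted p below 0.05 and at least a doubling or halving. As a result 30 of the 48 genes had a value in all 12 libraries, 12 genes in 9 libraries and 6 genes in 6 libraries. A group without a value is therefore not a group at zero. No read totals came with the values, so counting error cannot be stated. Variety names follow the column headers. The titles of both stress tables name the opposite variety. The titles of both tables between varieties name QJ before LJ, as their headers do, and the 31572 values that stand in more than 1 table under the same header held 0 conflicts. If the headers were nevertheless the wrong side, QJ and LJ would be exchanged throughout.

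When phosphate runs short, MYB factors of the PHR type bind the promoters of starvation genes and switch them on. SPX proteins hold these factors back while the cell is well supplied, and they are themselves targets of the factors, which closes a feedback loop. Downstream lie the PHT transporters that bring phosphate into cells, exporters and vacuolar carriers that pass it on, and IPS RNAs that trap a phosphate-responsive microRNA. Purple acid phosphatases (PAP) release phosphate from organic molecules, and enzymes of sulfolipids and galactolipids replace phospholipids in membranes.

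In each variety most of the genes tested were higher under stress. In QJ, 19 of the 22 genes tested were higher under stress and 3 were lower. Among all 3641 genes tested there 99.7% passed, since the table holds genes already selected as changed, so passing says little and the direction is what can be read. Of all these genes, 50.7% were higher and 49% were lower. The median log2 difference was 1.40 over the phosphate genes and 0.66 over all genes tested. In LJ, 22 of 33 genes were higher under stress and 11 were lower, where again 99.7% of the 5990 genes tested passed, 49.6% higher and 50% lower. Here the median was 1.10 over the phosphate genes and -0.54 over all genes tested. Tests are limma on log2(FPKM + 1), two-sided, with Benjamini-Hochberg adjustment over the whole table, and differences are given ± SE on that scale. It understates changes of genes near 1 FPKM. Among genes with a group mean of 5 FPKM or more the median coefficient of variation over a group's 3 libraries was 5.37% in stressed QJ, 2.71% in QJ control, 3.43% in stressed LJ and 3.39% in LJ control leaves. Stressed and control libraries did not overlap for any of the 22 genes in QJ or the 33 in LJ. The share over all genes was not counted, and in tables of genes already selected as changed this too says little. The largest adjusted p was 0.00813 among the 22 genes in QJ and 0.000104 among the 33 in LJ. Genes were tested where 3 or more libraries reached 1 FPKM, and a gene that did so in 1 group alone had to differ, so its difference is given as a value and supports nothing. Both medians over the phosphate genes include such genes and were not split without them. In QJ 7 of the 22 were of this kind: OsPT5, OsPT13, OsPAP9b, OsPAP20a, OsSPX5 and the Pho1 genes Os02g0809800 and Os06g0493600. Of the other 15 genes 13 were higher under stress and 2 were lower. In LJ these were 12 of the 33: OsPT5, OsPAP9b, OsPAP20a and OsPAP20b through the stressed libraries, and OsSPX-MFS2, OsPAP3a, OsPAP7, OsPAP10b, OsGdpD and the Pho1 genes Os06g0493600, Os02g0809700 and Os01g0110100 through the controls. Of the other 21 genes 18 were higher and 3 were lower. In neither variety were the shares over all genes split in this way, so they are no matched background for these reduced counts. In bulk leaves, fewer cells of a type and less RNA per cell cannot be told apart.

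A joint fit of all 12 libraries took the 30 genes with values everywhere, whether or not a stress table listed them, and 27 of these passed the filter on low values. In QJ 21 of the 27 were higher under stress, 4 were lower and 2 did not pass, where 76.2% of all 5170 genes tested passed, 42.6% higher and 33.6% lower. In LJ 19 were higher, 7 were lower and 1 did not pass, where 83.5% of all genes passed, 38.2% higher and 45.3% lower. The median log2 difference over these phosphate genes was 1.15 in QJ and 1.37 in LJ, and over all genes 0.07 and -0.10. A gene has 12 values only where the tables listed it as changed, so this fit is not free of selection. OsPT5, OsPAP9b, OsPAP20a and OsPAP20b reached 1 FPKM in stressed libraries alone, as did Os02g0809800 and OsPAP23 within QJ. OsPAP7 and Os06g0493600 did so in controls alone. Such genes support nothing, and these counts and medians were not split without them.

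By the signs of the authors' own fold changes, 20 of the 48 genes stood in both stress tables, 5 in that of QJ alone, 18 in that of LJ alone and 5 in neither. Of the 20, 17 were higher under stress in both varieties, which is 85.0%. Of all 2338 genes in both of them, 55.2% were higher in both. The 17 include PT2 and MGD2, which were too low to test. They also include OsPT5, OsPAP9b and OsPAP20a, which reached 1 FPKM in stressed libraries alone, as the Pho1 gene Os02g0809800 did in QJ. The signs of such genes support nothing, and neither share was split without them. OsPAP1c and the Pho1 gene Os06g0493600 were lower under stress in both varieties. OsPAP23 alone among the 20 was higher in QJ and lower in LJ.

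**Figure D1:**
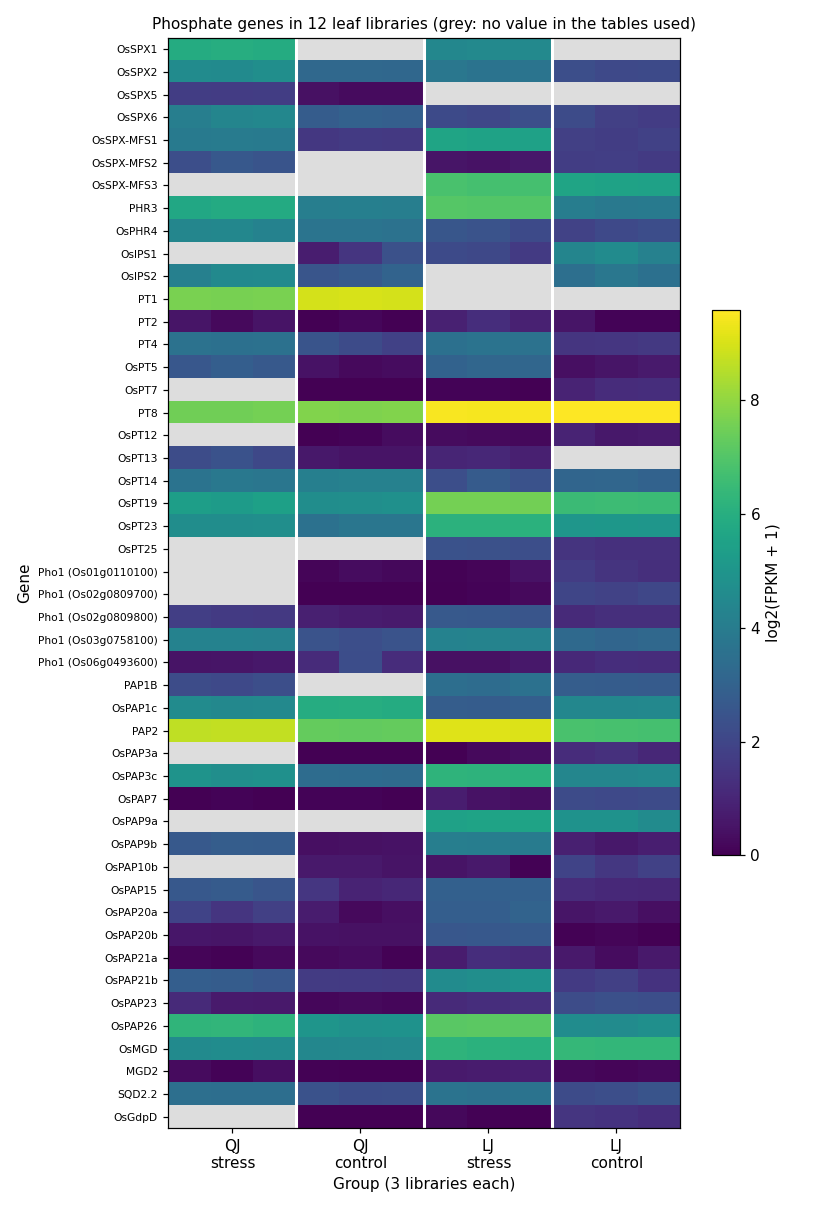
Level of the 48 phosphate starvation genes in the 12 libraries. Each row is a gene, each column a library in the order QJ stress, QJ control, LJ stress, LJ control, and colour is log2(FPKM + 1). Grey marks libraries without a value. Genes such as OsSPX-MFS1, PHR3, OsPAP26 and PAP2 are higher in each stressed group than in the controls of the same variety, and OsPAP1c is lower.

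PHR3, an MYB activator of starvation genes, was higher under stress in both varieties. It had 52.5, 57.3 and 57.5 FPKM in the stressed QJ libraries and 16.2, 16.6 and 16.1 FPKM in the QJ controls. In LJ it had 133, 129 and 127 FPKM under stress and 15.6, 13.6 and 14.5 FPKM in the controls. No groups overlapped, the controls of both varieties lay close together, and the stressed LJ libraries stood highest. PHR3 was 3.42 times the control level in stressed QJ leaves (log2 difference 1.71 ± 0.052, limma adjusted p = 1.88e-08) and 8.9 times in stressed LJ leaves (3.07 ± 0.052, adjusted p = 6.59e-10). The difference of the responses, QJ minus LJ, was -1.36 ± 0.073 (adjusted p = 5.12e-09). OsPHR4, a second MYB factor of this type, showed the other order of the varieties. It had 20.2, 20.6 and 18.0 FPKM in stressed QJ leaves and 11.7, 12.0 and 11.1 FPKM in QJ controls, against 4.86, 4.51 and 3.41 FPKM in stressed LJ leaves and 2.69, 3.35 and 3.84 FPKM in LJ controls. Every QJ library was above every LJ library, and within LJ the stressed and control libraries overlapped. OsPHR4 was 4.6 times as high in stressed QJ as in stressed LJ leaves (log2 difference 1.98 ± 0.12, adjusted p = 8.46e-07) and 3.52 times as high in QJ as in LJ controls (1.56 ± 0.11, adjusted p = 2.45e-06). OsPHR4 stands in neither stress table. In a joint fit of all 12 libraries it was higher under stress in QJ (0.71 ± 0.12, adjusted p = 0.000137) and also passed in LJ (0.29 ± 0.12, adjusted p = 0.0381).

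SPX genes encode the inhibitors of PHR factors. OsSPX2 had 23.8, 22.7 and 25.6 FPKM in stressed QJ libraries and 8.42, 8.33 and 8.22 FPKM in QJ controls. LJ had 12.7, 11.7 and 11.9 FPKM under stress and 3.92, 3.37 and 3.43 FPKM in the controls. Stress went with a higher level in both varieties and QJ was above LJ in both conditions, with no overlap between any pair of groups. The log2 difference between stress and control was 1.42 ± 0.066 in QJ and 1.52 ± 0.084 in LJ, and the difference of these responses did not pass (-0.10 ± 0.10, adjusted p = 0.417), though it did with each library centred on its median (-0.39, adjusted p = 0.00536). OsSPX6, also an SPX-domain inhibitor, was higher under stress in QJ. It had 16.0, 19.3 and 20.9 FPKM in stressed QJ libraries and 5.97, 6.8 and 6.4 FPKM in QJ controls, against 3.39, 3.12 and 3.94 FPKM in stressed LJ libraries and 3.51, 2.48 and 2.24 FPKM in LJ controls. The stressed QJ libraries stood apart above all others, while the LJ groups overlapped. OsSPX6 was 2.93 times its control level in stressed QJ leaves (log2 difference 1.41 ± 0.11), whereas the LJ difference of 0.27 ± 0.13 did not pass in the joint fit (adjusted p = 0.0749). The responses differed by 1.14 ± 0.19 (adjusted p = 0.000161). OsSPX1, known in rice as an inhibitor of a PHR factor, has values under stress only: 58.1, 61.8 and 58.3 FPKM in QJ and 20.5, 21.9 and 21.5 FPKM in LJ, 2.79 times as high in QJ (log2 difference 1.44 ± 0.046, adjusted p = 1.68e-08). OsSPX5 has values in QJ only, with 2.35, 2.29 and 2.32 FPKM under stress and 0.36, 0.22 and 0.22 FPKM in the controls. In QJ OsSPX2 and OsSPX6 were higher under stress, beside 50.7% of all genes tested, and OsSPX5 reached 1 FPKM in the stressed libraries alone. In LJ OsSPX2 was higher and OsSPX6 did not pass.

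SPX-MFS proteins carry phosphate across the vacuolar membrane, the cell's main phosphate store. OsSPX-MFS1 had 14.5, 14.8 and 14.2 FPKM in stressed QJ libraries and 1.93, 2.05 and 2.04 FPKM in QJ controls. In LJ it had 46.9, 45.2 and 43.2 FPKM under stress and 2.49, 2.34 and 2.59 FPKM in the controls. Controls of both varieties were low and under stress QJ was lower than LJ by a factor of 3.11. The stressed mean was 7.22 times the control mean in QJ (log2 difference 2.37 ± 0.080) and 18.2 times in LJ (3.73 ± 0.065), and the responses differed by -1.36 ± 0.089 (adjusted p = 2.98e-08). OsSPX-MFS3, measured in LJ alone, was also higher under stress, at 108 ± 3.72 FPKM against 45.1 ± 1.38 FPKM in the LJ controls (mean ± SD, n = 3 each; log2 difference 1.25 ± 0.040). OsSPX-MFS2 had 3.91, 5.23 and 4.59 FPKM in stressed QJ leaves, 0.47, 0.40 and 0.52 FPKM in stressed LJ leaves and 2.3, 2.47 and 2.08 FPKM in the LJ controls. Its stressed LJ libraries stood below both other groups with values, and since they stayed under 1 FPKM the gene was tested against them only through the other group.

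**Figure D2:**
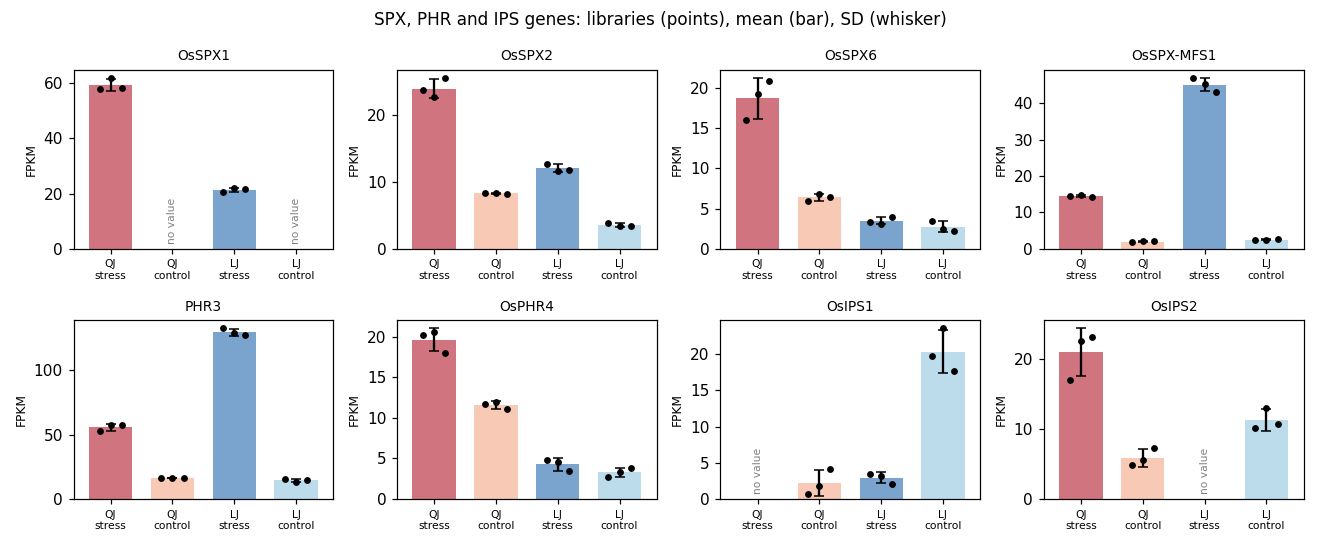
Levels of regulator genes in FPKM. Points are libraries, bars the mean of 3 libraries and whiskers the SD, with QJ stress, QJ control, LJ stress and LJ control from left to right and "no value" where the tables list none. PHR3 and OsSPX-MFS1 stand highest in the stressed LJ libraries, while OsSPX2, OsSPX6 and OsPHR4 stand highest in the stressed QJ libraries.

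The 2 IPS RNAs, noncoding RNAs that mimic a microRNA target, are standard markers of phosphate starvation. OsIPS2 had 17.0, 22.6 and 23.2 FPKM in stressed QJ libraries against 4.83, 5.5 and 7.32 FPKM in QJ controls, 3.56 times as high (log2 difference 1.67 ± 0.16, adjusted p = 1.88e-05). In the LJ controls it had 10.2, 13.0 and 10.6 FPKM, above every QJ control library (QJ minus LJ -0.84 ± 0.15, adjusted p = 0.000652), a difference that did not pass once each library was centred on its median (adjusted p = 0.158). OsIPS1 was lower under stress in LJ. It had 3.49, 3.25 and 2.06 FPKM in stressed LJ libraries and 19.8, 23.6 and 17.7 FPKM in LJ controls, with no overlap, and the stressed mean was lower by a factor of 6.93 (log2 difference -2.45 ± 0.16, adjusted p = 1.55e-06). In the QJ controls OsIPS1 had 0.68, 1.82 and 4.21 FPKM, a wide spread for 1 group, all below the LJ controls (QJ minus LJ -2.86 ± 0.36, adjusted p = 9e-05). Most floral organ and anther markers were also highest in the LJ controls, 20 of the 23 with values in both LJ groups, and their part in the OsIPS1 result was not tested.

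Of the genes named PT, 3 of 4 tested in the QJ stress table were higher under stress and 1 was lower, and in that of LJ all 5 tested were higher, where 50.7% and 49.6% of all genes were higher. Without the genes that reached 1 FPKM in 1 group alone, 1 was higher and 1 was lower in QJ, and 4 of 4 were higher in LJ. The shares over all genes were not split in this way. The joint fit tested 6 of them, and in each variety 4, with OsPT5 among them, were higher under stress and 2, PT8 and OsPT14, were lower. Over all genes in that fit 42.6% were higher and 33.6% lower in QJ, and 38.2% higher and 45.3% lower in LJ. PT8, a high-affinity transporter of the plasma membrane, had the highest group means of all 48 genes, both in LJ. In QJ it stood below PT1 in both conditions and below PAP2 under stress. It had 179, 181 and 189 FPKM in stressed QJ libraries and 215, 208 and 217 FPKM in QJ controls, against 715, 696 and 716 FPKM in stressed LJ libraries and 743, 754 and 762 FPKM in LJ controls. The varieties did not overlap, and QJ was lower than LJ by a factor of 3.87 under stress (log2 difference -1.95 ± 0.027) and of 3.53 in controls (-1.81 ± 0.022). Stress moved PT8 little, by -0.22 ± 0.025 in QJ and -0.09 ± 0.025 in LJ in the joint fit, and the LJ value changes sign to 0.08 on the scale of the authors' fold changes. PT1, a transporter highly expressed in rice shoots, was measured in QJ alone and was among the few genes that fell. It had 199, 195 and 202 FPKM in stressed QJ libraries against 495, 503 and 499 FPKM in QJ controls, lower by a factor of 2.51 (log2 difference -1.32 ± 0.023, adjusted p = 9.7e-10).

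PT4, known in rice for phosphate uptake, rose in both varieties at a lower level. It had 11.3, 10.5 and 11.0 FPKM in stressed QJ libraries and 4.62, 3.56 and 2.59 FPKM in QJ controls. LJ libraries had 10.5, 11.4 and 11.2 FPKM under stress and 1.75, 1.86 and 2.03 FPKM in the controls. The stressed levels of the varieties overlapped, and the larger response of LJ (QJ minus LJ -0.66 ± 0.18, adjusted p = 0.00678) came with a lower control level in LJ. OsPT5 averaged 5.58 ± 0.589 FPKM in stressed QJ leaves and 0.263 ± 0.0971 FPKM in QJ controls, and 7.59 ± 0.472 FPKM in stressed LJ leaves and 0.453 ± 0.15 FPKM in LJ controls (SD, n = 3 each). The difference of its responses did not pass (adjusted p = 0.292, but 0.0117 with median centring). The gene reached 1 FPKM in the stressed groups alone. OsPT13, known for its part in mycorrhizal symbiosis, averaged 3.73 ± 0.564 FPKM in stressed QJ leaves against 0.457 ± 0.0635 FPKM in QJ controls, and reached 1 FPKM in these stressed libraries but in none of those controls. PT4, OsPT5 and OsPT13 lie next to or near each other in the RefSeq gene table of assembly ASM3414082v1, as do PT2 and OsPT12. How reads shared by near-identical copies were counted is not given, so the split of signal among such neighbours is uncertain.

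OsPT19 differed mainly by variety. It had 40.0, 37.4 and 42.6 FPKM in stressed QJ libraries and 25.2, 25.6 and 26.9 FPKM in QJ controls, against 188, 188 and 185 FPKM in stressed LJ libraries and 90.5, 93.0 and 91.0 FPKM in LJ controls. Every LJ library was above every QJ library, with QJ lower by a factor of 4.67 under stress and 3.54 in controls, and stressed leaves had 1.55 times the control level in QJ (0.61 ± 0.044 in the joint fit) and 2.04 times in LJ (1.02 ± 0.025). OsPT23, described in the tables as a probable chloroplast anion transporter, averaged 25.1 ± 0.448 FPKM in stressed QJ leaves and 12.0 ± 0.957 FPKM in QJ controls, against 69.3 ± 1.72 FPKM in stressed LJ leaves and 31.9 ± 0.725 FPKM in LJ controls (SD, n = 3 each). The stressed mean was 2.1 times the control mean in QJ and 2.17 times in LJ, and the difference of the responses did not pass (-0.08 ± 0.076, adjusted p = 0.354), whereas with median centring it was -0.38 and passed (adjusted p = 0.00091). OsPT14, the chloroplast transporter of the PHT2 type, was lower under stress in the joint fit in QJ (-0.43 ± 0.10, adjusted p = 0.00206) and in LJ (-0.61 ± 0.10, adjusted p = 0.000108). It averaged 12.5 ± 0.874 FPKM in stressed QJ leaves and 17.2 ± 0.537 FPKM in QJ controls, against 4.65 ± 0.888 FPKM and 7.54 ± 0.506 FPKM in stressed and control LJ leaves (SD, n = 3 each). OsPT25, a probable anion transporter, averaged 4.12 ± 0.191 FPKM in stressed LJ leaves against 1.55 ± 0.11 FPKM in LJ controls (log2 difference 1.00 ± 0.090). PT2, OsPT7 and OsPT12 were too low to test: their group means lay at or below 1.03 FPKM for PT2, 1.22 FPKM for OsPT7 and 0.69 FPKM for OsPT12.

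**Figure D3:**
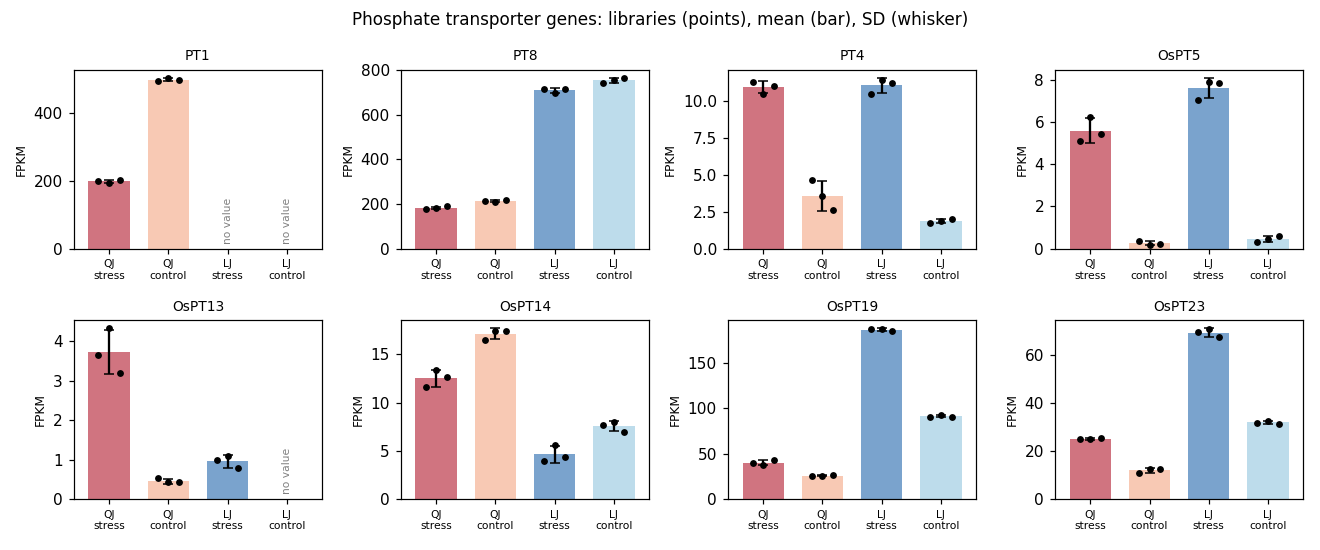
Levels of phosphate transporter genes in FPKM. Points are libraries, bars the mean of 3 libraries and whiskers the SD, with QJ stress, QJ control, LJ stress and LJ control from left to right and "no value" where the tables list none. PT8 and OsPT19 stand higher in LJ in both conditions, PT1 is lower in stressed than in control QJ leaves, and PT4 and OsPT5 are high in both stressed groups.

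The name Pho1 stands on 5 genes. In rice it is used both for PHO1 exporters, which load phosphate into the xylem, and for a plastid starch phosphorylase, and the tables do not say which is meant. RefSeq lists exporters on chromosomes 1, 2 and 6, and the ID of Os03g0758100 places it on chromosome 3. That gene had 18.0, 18.0 and 17.7 FPKM in stressed QJ libraries and 4.43, 3.9 and 4.49 FPKM in QJ controls. In LJ it had 18.2, 18.3 and 17.4 FPKM under stress and 8.61, 7.75 and 8.31 FPKM in the controls. Stressed leaves of the varieties overlapped in level and their controls did not (QJ minus LJ -0.81 ± 0.085, adjusted p = 2.83e-05, 0.0522 with each library centred on its median), and the response was larger in QJ (QJ minus LJ 0.80 ± 0.092, adjusted p = 6.71e-06). Os02g0809800 was also higher under stress, at 2.19 ± 0.25 FPKM against 0.70 ± 0.0889 FPKM in QJ controls and 5.1 ± 0.356 FPKM against 1.36 ± 0.149 FPKM in LJ controls (SD, n = 3 each). Os06g0493600 was lower under stress in both varieties, at 0.41, 0.45 and 0.52 FPKM in stressed QJ leaves, against 1.25, 3.8 and 1.3 FPKM in QJ controls, and at 0.41 ± 0.0954 FPKM in stressed LJ leaves, against 1.29 ± 0.106 FPKM in LJ controls. QJ control replicate 2 stood apart. Without it the QJ control mean is 1.275 in place of 2.12 FPKM and the log2 difference -0.64. In neither variety did the gene reach 1 FPKM under stress. Os02g0809700 and Os01g0110100 reached 1 FPKM in the LJ controls alone, with means of 0.0833 and 0.173 FPKM in stressed LJ leaves against 2.95 and 1.81 FPKM in LJ controls.

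Genes named PAP formed the largest group by name, with 16 members, and the name alone does not show that each encodes a phosphatase. In QJ 7 of the 8 tested were higher under stress and 1 was lower, and in LJ 10 of 15 were higher and 5 were lower, where 50.7% of all genes tested in QJ and 49.6% of those in LJ were higher. Without those that reached 1 FPKM in 1 group alone, 5 of 6 were higher and 1 was lower in QJ, and 7 of 9 were higher and 2 were lower in LJ. No such split was made of the shares over all genes. OsPAP26, an acid phosphatase known in rice for recovering phosphate from ageing leaves, had 76.9, 78.2 and 71.4 FPKM in stressed QJ libraries and 30.6, 27.4 and 28.6 FPKM in QJ controls. In LJ it had 140.4, 141 and 138 FPKM under stress and 24.2, 23.5 and 26.6 FPKM in the controls. No groups overlapped, and the stressed LJ libraries stood highest. OsPAP26 was 2.61 times its control level in stressed QJ leaves (log2 difference 1.36 ± 0.057) and 5.64 times in stressed LJ leaves (2.45 ± 0.049), and the responses differed by -1.09 ± 0.077 (adjusted p = 6.81e-08). PAP2 (Os09g0133600), whose product the tables do not describe, was the most abundant gene of this name. It had 404, 418 and 418 FPKM in stressed QJ libraries and 159, 155 and 159 FPKM in QJ controls, against 548, 558 and 530.0 FPKM in stressed LJ libraries and 111, 108 and 106 FPKM in LJ controls. All 4 groups were separate and the responses differed by -0.93 ± 0.038 (adjusted p = 3.7e-10).

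OsPAP21b, a secreted acid phosphatase known in rice to act on organic phosphate, had 6.18, 5.98 and 5.05 FPKM in stressed QJ libraries and 2.13, 2.12 and 2.01 FPKM in QJ controls. LJ libraries had 23.6, 25.8 and 28.5 FPKM under stress and 2.11, 2.5 and 1.67 FPKM in the controls. Controls of the varieties overlapped, and under stress QJ was lower than LJ by a factor of 4.53 (log2 difference -2.0 ± 0.10, adjusted p = 2.15e-07). OsPAP9b stayed below 1 FPKM in every control library. It had 5.35, 6.17 and 5.92 FPKM in stressed QJ libraries and 0.32, 0.34 and 0.40 FPKM in QJ controls, against 16.0, 15.5 and 14.7 FPKM in stressed LJ libraries and 0.77, 0.52 and 0.75 FPKM in LJ controls. Its stressed libraries stood above every control library, and the log2 differences were 2.33 ± 0.10 in QJ and 3.29 ± 0.10 in LJ. OsPAP3c had 29.4, 25.4 and 27.0 FPKM in stressed QJ libraries and 9.32, 9.16 and 8.85 FPKM in QJ controls, against 74.6, 72.3 and 70.2 FPKM in stressed LJ libraries and 19.9, 20.0 and 21.2 FPKM in LJ controls. LJ was higher in both conditions, and the responses differed by -0.30 ± 0.080 (adjusted p = 0.00546).

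OsPAP1c was lower under stress in both varieties. It had 23.5, 21.3 and 21.5 FPKM in stressed QJ libraries and 59.1, 61.8 and 58.9 FPKM in QJ controls, against 6.02, 5.84 and 6.24 FPKM in stressed LJ libraries and 20.6, 20.7 and 20.9 FPKM in LJ controls. Stressed leaves were lower than controls by a factor of 2.72 in QJ (log2 difference -1.40 ± 0.053) and 3.44 in LJ (-1.63 ± 0.060). QJ was above LJ under stress (1.71 ± 0.070) and in controls (1.49 ± 0.040). Its neighbour by ID number, PAP1B, averaged 10.1 ± 0.731 FPKM in stressed LJ leaves against 5.92 ± 0.15 FPKM in LJ controls (SD, n = 3 each).

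Among the PAP genes of lower level, OsPAP20a averaged 2.36 ± 0.517 FPKM in stressed QJ leaves and 0.387 ± 0.23 FPKM in QJ controls, against 6.63 ± 0.599 FPKM in stressed LJ leaves and 0.437 ± 0.125 FPKM in LJ controls (SD, n = 3 each). OsPAP20b averaged 5.26 ± 0.199 FPKM in stressed LJ leaves, against 0.0467 ± 0.0451 FPKM in the LJ controls. In QJ it averaged 0.513 ± 0.0709 FPKM under stress and 0.353 ± 0.0231 FPKM in the controls, a difference that did not pass in the joint fit (adjusted p = 0.0618). OsPAP20b reached 1 FPKM in the stressed LJ libraries alone. OsPAP15, whose Arabidopsis namesake is a phytase, averaged 5.24 ± 0.455 FPKM in stressed QJ leaves and 1.3 ± 0.491 FPKM in QJ controls, against 6.58 ± 0.0115 FPKM and 1.2 ± 0.123 FPKM in stressed and control LJ leaves, and its responses did not differ past the threshold (adjusted p = 0.132, but 0.0102 with median centring). OsPAP23 had 1.19, 0.60 and 0.56 FPKM in stressed QJ leaves and 0.11, 0.17 and 0.11 FPKM in QJ controls, against 1.38 ± 0.141 FPKM in stressed LJ leaves and 3.89 ± 0.205 FPKM in LJ controls. It was lower under stress in LJ (-1.04 ± 0.094). In QJ the groups did not overlap but only 1 library reached 1 FPKM, so the gene was too low to test there and entered the joint fit through LJ. OsPAP9a averaged 45.1 ± 0.865 FPKM in stressed LJ leaves against 26.8 ± 2.58 FPKM in LJ controls. OsPAP21a stayed at or below 1.08 FPKM in all group means and was not tested.

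**Figure D4:**
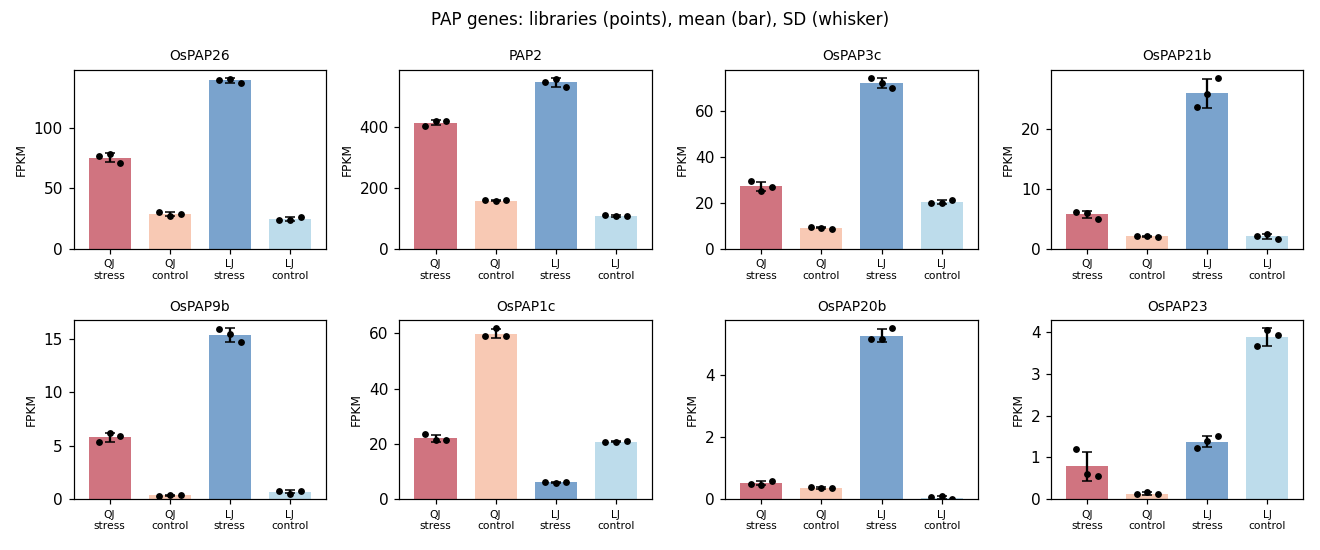
Levels of 8 PAP genes in FPKM. Points are libraries, bars the mean of 3 libraries and whiskers the SD, with QJ stress, QJ control, LJ stress and LJ control from left to right. OsPAP26, PAP2, OsPAP3c, OsPAP21b and OsPAP9b are higher under stress in both varieties, OsPAP1c is lower under stress in both, and OsPAP23 is highest in the LJ controls.

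Of the 4 lipid genes, SQD2.2, named for a sulfolipid synthase, was higher under stress in both varieties. It averaged 10.1 ± 0.237 FPKM in stressed QJ leaves and 3.99 ± 0.282 FPKM in QJ controls, against 11.3 ± 0.393 FPKM in stressed LJ leaves and 4.01 ± 0.517 FPKM in LJ controls (SD, n = 3 each). The responses differed by -0.15 ± 0.12, which did not pass (adjusted p = 0.3, but 0.00566 with median centring). OsMGD, named for the synthase of the main galactolipid of chloroplast membranes, differed by variety and little by stress. It had 22.7, 24.5 and 23.7 FPKM in stressed QJ libraries and 20.7, 21.2 and 21.7 FPKM in QJ controls, against 74.2, 68.6 and 64.9 FPKM in stressed LJ libraries and 81.5, 80.2 and 79.2 FPKM in LJ controls. QJ was lower by a factor of 2.93 under stress (-1.51 ± 0.057) and of 3.79 in controls (-1.87 ± 0.038). The joint fit put the stress difference at 0.15 ± 0.049 in QJ and -0.21 ± 0.049 in LJ, and on the scale of the authors' fold changes these become 0.01 and -0.04. MGD2 stayed at or below 0.67 FPKM in all group means and was not tested. OsGdpD, named for a glycerophosphodiester phosphodiesterase, averaged 0.0633 ± 0.0709 FPKM in stressed LJ leaves against 1.61 ± 0.191 FPKM in LJ controls, and was listed at 0 in every QJ control library.

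The stress responses of the varieties were also compared directly, as QJ minus LJ, in a fit of all 12 libraries. Of the 27 genes tested, 7 had the higher response in QJ, 13 had the lower response in QJ and 7 did not pass. Without OsPAP7 and OsPAP20b, which reached 1 FPKM in 1 group alone, 6 of 25 were higher, 12 were lower and 7 did not pass. The 12 still include OsPAP9b and OsPAP20a, which reached 1 FPKM in stressed libraries alone, and Os02g0809800, which did so within QJ. The 6 still include OsPAP23. Such genes support nothing, and neither these counts nor the shares over all genes were split without them. Over all 5170 genes tested 66.4% passed, 41.4% higher and 25% lower. The median difference was -0.30 over the phosphate genes and 0.21 over all genes. FPKM ratios and the authors' fold changes were not on the same scale: matching them would shift log2 differences by -0.14 for stress in QJ, 0.17 for stress in LJ, -0.17 for the varieties as controls, -0.38 for the varieties under stress and -0.31 for the difference of responses. Genes named PAP were 11 of the 27 tested. Of the 13 lower responses in QJ 7 were of genes named PAP, PAP2 among them, and the others were of PHR3, OsSPX-MFS1, PT4, PT8, OsPT19 and the Pho1 gene Os02g0809800. Among these 7 PAP genes OsPAP9b, OsPAP20a and OsPAP20b reached 1 FPKM in stressed libraries alone. The higher responses in QJ belonged to 3 PAP genes (OsPAP23, OsPAP7 and OsPAP1c) and to OsSPX6, OsPHR4, OsMGD and Os03g0758100. OsPAP7 reached 1 FPKM in the LJ controls alone, OsPAP20b in stressed LJ alone and OsPAP23 in a single QJ library, so their differences of responses are given as values and no QJ response is read from them. On the authors' scale, an alternative added after the data were seen, 4 responses were higher in QJ and 18 were lower. There the calls of OsPAP1c, OsPHR4 and OsMGD are lost, that of OsPAP1c with a change of sign to -0.083, and OsSPX2, SQD2.2, OsPT5, OsPT23 and OsPAP15 join the lower ones. Centring each library on its median loses and adds the same genes. The OsPHR4 difference of 0.42 ± 0.17 (adjusted p = 0.0447) also rests on single libraries: it did not pass without QJ stress replicate 1 or 2, any of the 3 QJ controls, LJ stress replicate 3 or LJ control replicate 2 or 3, at 0.30 to 0.44.

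**Figure D5:**
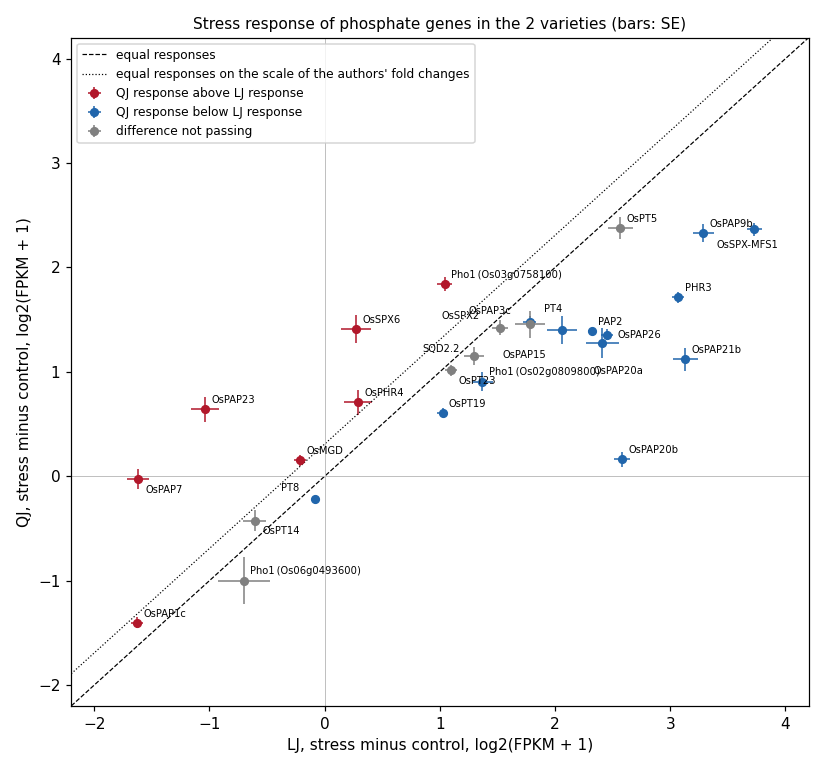
Stress response of the phosphate genes tested in all 12 libraries. The vertical axis is the log2(FPKM + 1) difference between stress and control in QJ and the horizontal axis that in LJ, points are genes, bars are SE and colour gives the outcome of the test of the difference. PHR3, OsSPX-MFS1, OsPAP26, OsPAP21b and OsPAP20b lie below the dashed line of equal responses (dotted: equal on the scale of the authors' fold changes), and OsSPX6, Os03g0758100 and OsPAP23 lie above it.

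Between the varieties, the counts lay near those of all genes in each table. Under stress 7 of 22 genes were higher in QJ than in LJ and 15 were lower, where 99.4% of all 5662 genes tested passed, 34% higher and 65.4% lower. The median log2 difference was -1.20 over the phosphate genes and -0.82 over all genes tested. In controls 5 of 21 genes were higher in QJ and 16 were lower, where 99.7% of the 6108 genes tested passed, 31.1% higher and 68.6% lower, with medians of -1.21 and -1.02. Of these 21 genes 8 reached 1 FPKM in the LJ controls alone, all of them lower in QJ, and of the other 13 genes 5 were higher and 8 were lower. Neither the medians nor the shares over all genes were split without such genes. In the joint fit 5 of 27 genes were higher in QJ under stress and 17 were lower, where 91.3% of all genes passed, 30.8% higher and 60.5% lower. In controls it put 10 higher and 11 lower in QJ, where 89.2% of all genes passed, 31.2% higher and 58% lower. There the medians lay apart, at -0.0013 over the phosphate genes and -0.66 over all genes, while under stress they were -0.51 and -0.57. The joint counts and medians were not split by which groups reached 1 FPKM. The 7 genes higher in QJ under stress were OsSPX1, OsSPX6, OsSPX-MFS2, OsPHR4, OsPT13, OsPT14 and OsPAP1c. Of the 22 genes 2 reached 1 FPKM in 1 stressed group alone, OsSPX-MFS2 in QJ and OsPAP20b in LJ. The 5 higher in QJ controls were OsSPX2, OsSPX6, OsPHR4, OsPT14 and OsPAP1c. Of the genes with SPX in their name that were tested in these 2 tables, OsSPX-MFS1 alone was lower in QJ, under stress, and 8 of the 9 PAP genes tested under stress were. The largest adjusted p among genes that passed was 0.0186 under stress, for OsPAP23, and 0.000912 in controls. OsPAP23 did not pass without QJ stress replicate 2 or 3 or LJ stress replicate 3, at -0.39 to -0.34, nor with each library centred on its median (-0.28, adjusted p = 0.0921).

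Some of these genes stood highest in the LJ controls, at a share near that of all genes. By a rule chosen after the values were seen, a mean over 3 times that of every other measured group, 8 of 41 genes with LJ control values in at least 9 libraries qualified, which is 19.5%, against 15% of all 8461 such genes. They were OsIPS1, OsPT7, OsPAP3a, OsPAP7, OsPAP10b, OsGdpD and the Pho1 genes Os02g0809700 and Os01g0110100. Of these only OsPAP7 has values in stressed QJ leaves, so the level of the others there is unknown. Apart from OsPT7, which was not tested, these are 7 of the 11 genes that were lower in stressed LJ leaves. The rule itself sets LJ controls above stressed LJ leaves, so this overlap was fixed in advance and supports nothing. All 7 except OsIPS1 also reached 1 FPKM in the LJ controls alone. The share of all genes lower in stressed LJ leaves that met the rule was not counted. Os02g0809700 averaged 0.0833 ± 0.085 FPKM in stressed LJ leaves and 2.95 ± 0.25 FPKM in LJ controls, and was listed at 0 in the QJ controls. OsPAP7 averaged 0.463 ± 0.212 FPKM in stressed LJ leaves and 3.47 ± 0.146 FPKM in LJ controls, and stayed at or below 0.040 FPKM in both QJ group means. OsPAP10b averaged 0.357 ± 0.277 FPKM in stressed LJ leaves, 0.537 ± 0.0924 FPKM in QJ controls and 2.44 ± 0.473 FPKM in LJ controls (SD, n = 3 each). OsPAP3a averaged 0.153 ± 0.146 FPKM in stressed LJ leaves and 1.32 ± 0.20 FPKM in LJ controls. The libraries are labelled leaf, yet most markers of floral organs and anthers moved with this pattern. Among 21 such markers measured in the same way 15 met the same rule, which is 71.4%. Over 10 of the 24 markers, with values in all libraries, their summed level lay between 3.28 and 4.05 FPKM in stressed QJ libraries, 1.63 and 2.91 FPKM in QJ controls, 16.0 and 18.25 FPKM in stressed LJ libraries and 346 and 355 FPKM in LJ controls. This sum leaves out OsTIP2 (Os06g0336200), whose symbol is shared with aquaporins, and with it the ranges are 34.1 to 38.4, 92.7 to 102, 67.2 to 69.3 and 455 to 481 FPKM in the same order. OsMADS7, a floral organ gene, was listed at 0 in the QJ controls. Of the 23 markers with values in both LJ groups, 3 were higher in stressed LJ leaves than in LJ controls. These were EAT1, known from anthers, with means of 3.88 and 1.42 FPKM, OsCP1 (Os04g0670500) with 1.05 and 0.143 FPKM, and OsTIP2 (Os02g0658100) with 1.12 and 0.353 FPKM. OSC6, known from anthers, was listed at 0 in the stressed QJ libraries and had 150.1, 157 and 155 FPKM in the LJ controls. The part of floral tissue in the results for these 8 genes was not tested.

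Markers of leaf state moved with stress too. The summed level of 12 of 15 markers of photosynthetic tissue, those with values in all libraries, lay between 2145 and 2187 FPKM in stressed QJ libraries against 7659.5 and 7965 FPKM in QJ controls, and between 908 and 919 FPKM in stressed LJ libraries against 5809 and 5832 FPKM in LJ controls. That of 5 of 9 senescence markers lay between 445 and 449 FPKM in stressed QJ libraries against 167 and 169 FPKM in QJ controls, and between 645 and 662 FPKM in stressed LJ libraries against 130.4 and 137 FPKM in LJ controls. In the joint fit 10 of the 12 photosynthetic markers were lower under stress in each variety, beside 33.6% of all genes in QJ and 45.3% in LJ. RbcS1 was higher in both, with means of 1.13 against 0.183 FPKM in QJ and 13.5 against 6.09 FPKM in LJ, and PSBS2 was higher in QJ, at 13.1 against 7.08 FPKM. Of the 5 senescence markers 4 were higher under stress in each variety, while NAC2 was lower in QJ, at 10.7 against 17.4 FPKM, and did not pass in LJ. Over all genes in the joint fit 42.6% were higher in QJ and 38.2% in LJ. OsSAG12 (Os09g0497500), outside the sum, averaged 0.0767 FPKM in stressed LJ leaves and 5.07 FPKM in LJ controls. The senescence sum rose with PHR3, OsPAP26 and the other genes that were higher under stress, and the photosynthetic sum fell as they rose. The part of these markers in the results for those genes was not tested. Of the 3 root markers OsSHR1 lay at 0 to 1.02 FPKM over all libraries. LSI1, a silicon transporter known from roots, moved with stress in QJ. It had 9.55, 9.82 and 8.48 FPKM in stressed QJ libraries, 3.3, 2.97 and 3.16 FPKM in QJ controls and 5.88, 5.29 and 5.24 FPKM in LJ controls (stress minus control in QJ 1.31 ± 0.094, adjusted p = 2.92e-06), and its part in the QJ results was not tested.

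Other genes of phosphate handling were counted from lists outside the name rule. Of 12 regulators of signalling and distribution, 3 of 4 tested in QJ were higher under stress and 1 was lower, and 4 of 6 tested in LJ were higher and 2 were lower. For this and the next lists, 50.7% of all genes tested in QJ and 49.6% of those in LJ were higher, and the genes that reached 1 FPKM in 1 group alone were 1 regulator in QJ, and 1 recycling gene and 2 lipid genes in LJ. OsNLA1, known in rice as a ubiquitin ligase that removes phosphate transporters from the membrane, had 22.0, 21.1 and 22.1 FPKM in stressed QJ libraries and 8.47, 8.18 and 8.27 FPKM in QJ controls. LJ libraries had 121, 117 and 125 FPKM under stress and 2.86, 2.24 and 3.09 FPKM in the controls. OsITPK4, a kinase of inositol phosphates, the class of molecules that SPX proteins bind, had 7.69, 6.82 and 6.46 FPKM in stressed QJ libraries and 0.35, 0.35 and 0.35 FPKM in QJ controls, against 69.6, 65.7 and 66.9 FPKM in stressed LJ libraries and 2.11, 2.38 and 1.95 FPKM in LJ controls. Stressed and control libraries did not overlap for OsNLA1 in either variety or for OsITPK4 in LJ, and the share over all genes was not counted. In QJ OsITPK4 is the regulator that reached 1 FPKM in the stressed libraries alone, so its QJ difference is given as a value. The difference of responses passed for OsNLA1 (-3.75 ± 0.11, adjusted p = 1.16e-11) and OsITPK4 (-1.88 ± 0.11, adjusted p = 1.52e-08). Other regulators went the other way. OsITPK3 averaged 77.8 FPKM in stressed and 130 FPKM in control QJ leaves, and 27.1 and 42.9 FPKM in stressed and control LJ leaves. WRKY74 averaged 70.5 FPKM in stressed QJ leaves against 350 FPKM in QJ controls. Of 12 genes of nucleotide and phosphate recycling, 2 of 5 tested in QJ were higher under stress and 3 were lower, and 6 of 8 tested in LJ were higher and 2 were lower. OsRNS3, an S-like ribonuclease, was higher under stress in both varieties, with 170.1, 172 and 169.7 FPKM in stressed QJ libraries against 55.0, 52.2 and 54.3 FPKM in QJ controls, and 52.8, 53.7 and 54.2 FPKM in stressed LJ libraries against 15.4, 15.8 and 15.1 FPKM in LJ controls. RNS4, a second gene named for a ribonuclease, was lower under stress in QJ, with 75.7, 78.0 and 80.7 FPKM against 189, 196 and 192 FPKM in QJ controls, and higher under stress in LJ, with 89.3, 86.6 and 82.3 FPKM against 18.2, 17.9 and 16.3 FPKM in LJ controls. Of 13 genes of membrane lipid recycling, the only one tested in QJ, OsPLDzeta1, was higher under stress, and in LJ 5 of 7 were higher and 2 were lower. OsPLDzeta1, a phospholipase D, had 16.6, 16.6 and 16.2 FPKM in stressed QJ libraries against 7.01, 6.81 and 7.42 FPKM in QJ controls, and 15.7, 15.6 and 15.7 FPKM in stressed LJ libraries against 7.17, 7.08 and 6.43 FPKM in LJ controls.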

How the data were processed

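Leaf RNA of 12 libraries was sequenced on a NovaSeq X Plus, per the labels. The authors deposited FPKM per library, a ratio of groups, a log2 fold change, a p-value and an adjusted p for selected genes in 4 tables, while the aligner, build, counting of near-identical copies and their test were not given in the sources used here. Libraries were assigned by title; library names of QJ samples repeat and were not used. Of 31572 values present in more than 1 table, 0 conflicted.

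Limma 3.58.1 in R 4.3.3 with a trended prior was fitted to log2(FPKM + 1), a pseudocount of 1, table by table, keeping a gene where 3 or more libraries reached 1 FPKM. The difference of responses and the joint fit used the 5534 genes with 12 values, before that filter. Tests passed at an adjusted p under 0.05 and measure only the spread between the deposited samples. Of the 48 genes 43 were tested, while MGD2, PT2, OsPT7, OsPT12 and OsPAP21a fell under the filter. Values per library were given for the 18 genes with a group mean of at least 10 FPKM and a passing log2 difference of at least 1.5 in size, and for some genes with fewer groups or from other lists, chosen after their values were seen. Alternatives were other pseudocounts, filters, scalings, priors, a fold threshold, the joint fit, a replicate block and the omission of each library. The procedure was tested on simulated data. Members and lists were chosen with earlier results of these data known. RefSeq's gene table (assembly ASM3414082v1) matched 0 of 48 IDs and 14 genes by name and chromosome number. No sequence was used. Python 3.11.15, pandas 2.3.3, numpy 2.4.6 and matplotlib 3.10.9 were used for tables and figures.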

Additional observations from a re-analysis of the deposited data

Results flagged for a closer look

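For 20 genes the stress responses of QJ and LJ differed by the test of that difference (limma over 12 libraries, adjusted p under 0.05). Values are the QJ response minus the LJ response on the log2(FPKM + 1) scale. Above zero lay OsPAP23 at 1.68, OsPAP7 at 1.59, OsSPX6 at 1.14, Pho1 (Os03g0758100) at 0.80, OsPHR4 at 0.42, OsMGD at 0.36 and OsPAP1c at 0.23. Below zero by less than 1 lay PT8 at -0.13, OsPAP3c at -0.30, OsPT19 at -0.41, Pho1 (Os02g0809800) at -0.46, PT4 at -0.66, PAP2 at -0.93 and OsPAP9b at -0.96. Further below lay OsPAP26 at -1.09, OsPAP20a at -1.13, PHR3 at -1.36, OsSPX-MFS1 at -1.36, OsPAP21b at -2.01 and OsPAP20b at -2.42. Of all genes tested 66.4% passed this test, and the values of OsPHR4, OsMGD and OsPAP1c lose their call on the scale of the authors' fold changes. OsPAP7 reached 1 FPKM in the LJ controls alone, OsPAP20b in stressed LJ alone and OsPAP23 in a single QJ library, so no QJ response is read from these values. OsPAP9b and OsPAP20a reached it in stressed libraries alone, so their values support nothing.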

How the results depend on the processing

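With a filter of at least 5 FPKM, 2 genes in place of 11 were lower in stressed LJ leaves and 8 in place of 16 were lower in QJ than in LJ controls, since fewer genes were tested. The joint fit, on genes with 12 values, gave 7 lower in stressed LJ leaves and 10 in place of 5 higher in QJ controls. Higher responses in QJ numbered 4 in place of 7 with median centring and with the authors' scale (added after seeing the data), and 3 with a log2 threshold of 1, where lower ones numbered 6 in place of 13. Signs changed for Pho1 (Os02g0809800) between controls, to 0.13 with centring (adjusted p = 0.18), and for the OsPAP1c difference of responses, to -0.073 with centring and -0.083 on the authors' scale; the cause was not tested. Leaving out each library gave 19 to 19 higher and 3 to 3 lower in stressed QJ, 22 to 22 and 11 to 11 in stressed LJ, 5 to 5 and 16 to 16 between controls, 7 to 7 and 14 to 15 between stressed groups, and 6 to 8 and 13 to 14 for the responses. In that last comparison PT8 did not pass without the trend (adjusted p = 0.0788), Pho1 (Os02g0809800) with a pseudocount of 0.1 (0.233), and OsPHR4 with pseudocounts of 0.1 (0.126) and 0.5 (0.0763). Without QJ control replicate 2 OsPAP15 passed (0.0391), and without LJ stress replicate 2 OsPT14 did (0.0344). Same-numbered libraries of different groups did not deviate together, with correlations of -0.065 to 0.064 against -0.079 to 0.087 for other pairs. No pairing by number was seen in these values, which cannot tell whether same-numbered samples were handled together. A replicate block kept the counts of calls apart from OsPHR4, whose difference of responses did not pass (0.42, adjusted p = 0.0576). Depth is unknown, and 17 of the 48 genes had every measured group mean under 5 FPKM.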
